A study of Mus musculus with 11 samples.

Results

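Reads from the maternal and the paternal copy of each autosomal gene were compared in the hippocampus of 6 young female mice. The genes compared were those with at least 20 reads assigned to an allele, both alleles summed, in each of the 6 mice, which kept 20237 of the 50957 autosomal genes and of the 55401 genes in all. The mice were first-generation offspring of reciprocal crosses between C57BL/6 (BL6) and CAST, an inbred strain derived from wild mice. A BL6 mother and a CAST father had 3 of the young mice, all 9 weeks old. A CAST mother and a BL6 father had the other 3, at 8, 8 and 9 weeks. The old mice set beside them were 3 with a BL6 mother, at 101, 101 and 104 weeks, and 2 with a CAST mother, both at 103 weeks. Every mouse thus carried 1 BL6 and 1 CAST copy of each autosome, with no other mutation or treatment in the labels, and gave 1 library of polyadenylated RNA from the homogenised hippocampus. The labels do not say whether any of the mice were littermates.

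In genomic imprinting, DNA methylation set in the egg or the sperm marks a control region, and genes near it are then expressed mainly from the maternal or mainly from the paternal copy. The brain is one of the tissues where most imprinted genes are expressed. In some loci, such as that of Grb10, neurons use another parental copy than most cells do. ZFP57, a zinc finger protein, binds a methylated motif with the core TGCCGC and keeps the mark on the methylated copy in the early embryo.

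The promoter windows below belong to 6 genes called as expressed mainly from the paternal copy and to Meg3, called as expressed mainly from the maternal copy, and they are shown because they hold the letters TGCCGC on either strand. They are RefSeq sequences of GRCm38.p6, from 250 bases before to 50 bases after the gene's start on the gene's own strand, and capitals mark TGCCGC or its reverse complement GCGGCA.
Snrpn, chr7:60005150-60005449, minus strand: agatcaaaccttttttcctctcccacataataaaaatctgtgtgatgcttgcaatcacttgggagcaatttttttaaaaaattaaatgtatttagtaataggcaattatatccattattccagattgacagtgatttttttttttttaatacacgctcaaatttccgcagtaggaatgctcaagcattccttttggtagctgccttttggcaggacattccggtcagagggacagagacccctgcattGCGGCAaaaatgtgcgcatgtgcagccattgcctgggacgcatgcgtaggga
Zdbf2, chr1:63200108-63200407, plus strand: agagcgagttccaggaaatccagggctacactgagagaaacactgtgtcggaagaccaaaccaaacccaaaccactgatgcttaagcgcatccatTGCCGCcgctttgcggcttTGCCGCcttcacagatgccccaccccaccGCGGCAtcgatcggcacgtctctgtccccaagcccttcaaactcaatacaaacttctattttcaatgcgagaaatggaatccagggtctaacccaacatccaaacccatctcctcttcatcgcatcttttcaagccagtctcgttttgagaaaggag
Nap1l5, chr6:58907077-58907376, minus strand: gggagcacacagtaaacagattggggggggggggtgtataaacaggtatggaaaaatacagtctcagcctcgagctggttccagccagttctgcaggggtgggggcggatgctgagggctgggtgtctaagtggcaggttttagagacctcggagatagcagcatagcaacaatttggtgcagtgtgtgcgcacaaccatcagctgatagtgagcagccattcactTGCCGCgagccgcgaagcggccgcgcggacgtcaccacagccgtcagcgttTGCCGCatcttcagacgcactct
Mest, chr6:30737800-30738099, plus strand: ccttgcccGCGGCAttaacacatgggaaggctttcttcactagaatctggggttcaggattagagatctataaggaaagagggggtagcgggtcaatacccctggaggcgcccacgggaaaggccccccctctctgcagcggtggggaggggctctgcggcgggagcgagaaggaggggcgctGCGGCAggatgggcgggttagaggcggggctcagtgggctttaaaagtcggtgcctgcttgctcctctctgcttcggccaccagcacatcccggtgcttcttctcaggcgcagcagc
Plagl1, chr10:13090582-13090881, plus strand: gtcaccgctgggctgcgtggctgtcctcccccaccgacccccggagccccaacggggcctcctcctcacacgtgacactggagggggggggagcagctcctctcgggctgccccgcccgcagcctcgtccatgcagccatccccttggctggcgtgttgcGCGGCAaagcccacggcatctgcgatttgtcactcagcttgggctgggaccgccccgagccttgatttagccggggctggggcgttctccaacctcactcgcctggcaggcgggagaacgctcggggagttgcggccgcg
Grb10, chr11:12037371-12037670, minus strand: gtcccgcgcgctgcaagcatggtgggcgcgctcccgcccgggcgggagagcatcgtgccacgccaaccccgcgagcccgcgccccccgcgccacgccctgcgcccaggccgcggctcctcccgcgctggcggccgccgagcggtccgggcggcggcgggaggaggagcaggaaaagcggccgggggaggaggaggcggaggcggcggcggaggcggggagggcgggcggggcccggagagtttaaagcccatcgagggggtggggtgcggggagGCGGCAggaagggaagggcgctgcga
Meg3, chr12:109540746-109541045, plus strand: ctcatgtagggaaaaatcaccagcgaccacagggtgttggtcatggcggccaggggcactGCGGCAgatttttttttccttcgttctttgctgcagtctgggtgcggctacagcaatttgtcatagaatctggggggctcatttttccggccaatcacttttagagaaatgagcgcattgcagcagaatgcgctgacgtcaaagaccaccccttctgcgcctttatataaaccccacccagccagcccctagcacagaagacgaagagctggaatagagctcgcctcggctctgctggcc

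Of the 152 called genes, 48 had a promoter window in the RefSeq table. The motif was in a window of 12 of 33 genes called as higher from the paternal copy (36.4%) and of 4 of 15 called as higher from the maternal copy (26.7%). Snrpn and Snurf share the same window with the motif and are both counted, so the called genes are not all separate promoters. Among the tested genes with a window it was in 2538 of 12101 (21%), and it was in 11.6% of all 32851 windows of this length in the table. These shares are a description: a match to the letters is not a bound site, and Snrpn, Mest, Zdbf2, Grb10 and Meg3 each have a further window without them.

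The called genes include 30 annotated miRNA genes, 28 of them in the Dlk1–Meg3 locus on chromosome 12 and 2 on chromosome 7, and 26 were matched to RefSeq with 48 mature sequences. The 48 carry 46 different seeds (bases 2 to 8), and the mature sequences below are those that share a seed, followed by 4 others of the chromosome 12 locus. Capitals mark the seed.
mmu-miR-3070-3p: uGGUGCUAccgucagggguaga
mmu-miR-3070-2-3p: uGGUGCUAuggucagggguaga
mmu-miR-344-5p: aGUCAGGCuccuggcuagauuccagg
mmu-miR-344g-5p: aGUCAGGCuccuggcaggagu
mmu-miR-409-3p: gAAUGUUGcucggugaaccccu
mmu-miR-410-3p: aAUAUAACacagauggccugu
mmu-miR-377-3p: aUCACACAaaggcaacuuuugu
mmu-miR-300-3p: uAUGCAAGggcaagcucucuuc
The reads over these genes come from polyadenylated RNA, so they measure the long transcripts around the miRNAs and not the mature molecules. The genes Mir3070a and Mir3070b, which share the seed GGUGCUA, had 95.7% or more maternal reads in every mouse.

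The 6 young libraries had 111.1 to 214.8 M counts, of which 39.7 to 76.9 M (35.1% to 35.9%) were assigned to an allele. The BL6 alleles held 50.4% to 51.1% of the allelic counts. Markers of the hippocampus were present in every library: all 10 in the list reached 1 CPM (counts scaled to library size) in some mouse, and their summed level was 705.6 to 1441 CPM. The 10 markers of neocortex varied less, summing to 664.2 to 792.7 CPM, and in BL6-mother replicate 3 they stood above those of hippocampus (768.1 against 705.6 CPM). Markers of other neighbouring tissue varied more. The 10 markers of striatum summed to 3525 CPM in CAST-mother replicate 2 and 2287 CPM in BL6-mother replicate 3, and to 178 to 439 CPM in the other 4 mice. The 10 markers of choroid plexus summed to between 129 CPM in CAST-mother replicate 3 and 2006 CPM in CAST-mother replicate 2, and the 10 of thalamus to 1055 CPM in CAST-mother replicate 1 against 180 to 240 CPM in the others. In whole tissue, fewer cells of a type and less RNA per cell cannot be told apart.

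Of the 20237 genes, 152 were called as differing between the parental copies (0.751%), by edgeR's quasi-likelihood test with terms for the mouse, the parent and the strain of the allele and an adjusted p under 0.05. The maternal copy was higher for 81 (0.4%) and the paternal copy for 71 (0.351%). An unadjusted p under 0.05 was given to 983 genes. For all 152 the share of BL6 reads in the 3 mice of one cross lay apart from that in the 3 mice of the other, which held for 10.2% of all genes tested. The strain of the allele was a far more common source of difference, with 60.7% of all tested genes called for it, and 90 of the 152 were among these. In 12 of the 152 the strain effect was larger than the parental one.

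**Figure D1:**
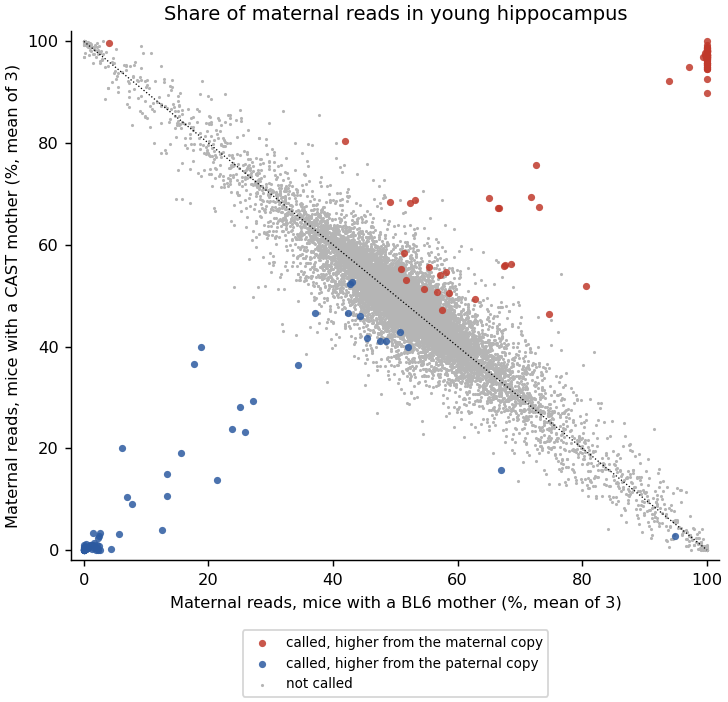
Share of maternal reads per gene, mean of the 3 young mice with a BL6 mother (x axis, %) against mean of the 3 with a CAST mother (y axis, %), each point 1 of 20237 genes. Genes that follow the strain lie along the falling dotted diagonal; the 81 genes called higher from the maternal copy lie above it, with a dense group at the upper right, and the 71 called higher from the paternal copy lie below it, most of them at the lower left.

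The calls were near-exclusive for one group of genes and small for another. Among genes called higher from the maternal copy, 52 had a mean share of under 5% from the paternal copy, 2 had 5% to 20%, and 27 had 20% or more. Among genes called higher from the paternal copy, 44 had under 5% from the maternal copy, 8 had 5% to 20%, and 19 had 20% or more. The near-exclusive maternal genes are largely noncoding: the 81 include 28 miRNA genes and 16 small nucleolar RNA (snoRNA) genes beside 26 protein-coding genes, while the 71 paternal genes include 33 protein-coding genes. Called genes no more than 1 Mb apart formed 29 loci, of which 18 held a called gene from the lists of known imprinted genes and took in 141 of the 152 genes. Most lay on a pair of chromosomes: 53 maternal genes lie on chromosome 12 and 42 paternal genes on chromosome 7. Many calls are not independent, since 84 called genes overlap another called gene. Mir409 and Gm24321, at the same place on opposite strands, have identical counts.

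Of 30 tested genes on the list of paternally expressed genes, 25 were called higher from the paternal copy, 2 from the maternal copy and 3 were not called, with a median log2 ratio of maternal over paternal reads of -5.33. Of 35 tested genes on the list of maternally expressed genes, 12 were called higher from the maternal copy, 3 from the paternal copy and 20 were not called, with a median of 0.15. The median over all genes tested was 0.00, with 0.751% called. In the better-known core of the lists, 21 of 24 paternal genes and 7 of 12 maternal genes were called in the direction of their list.

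**Figure D2:**
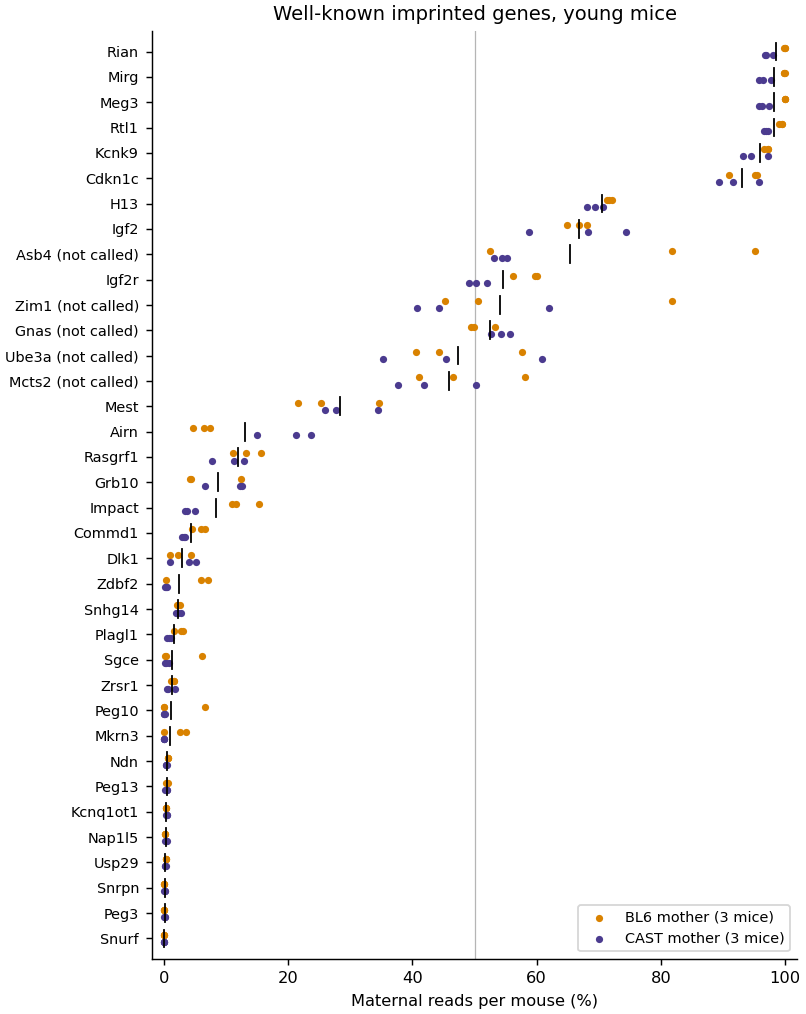
Share of maternal reads (%) in each young mouse for the 36 tested core imprinted genes, ordered by their mean (black bar); orange points are the 3 mice with a BL6 mother and purple points the 3 with a CAST mother. The genes from Snurf to Commd1 lie under 8% in every mouse, those from Cdkn1c to Rian above 89%, and the genes between them, 5 of which were not called, are spread between.

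The largest block of paternally expressed genes was the Snrpn–Ube3a locus on chromosome 7, the mouse counterpart of the human Prader-Willi and Angelman syndrome region, with 33 called genes between 59223847 and 62420139 (GRCm38), 32 higher from the paternal copy and 1 from the maternal copy. Snrpn encodes a spliceosomal Sm protein of neurons and lies at 59982495 to 60140219 on the minus strand. It had 10, 8 and 7 maternal against 18986, 25778 and 15348 paternal reads in mice with a BL6 mother, and 32, 35 and 16 against 17411, 22603 and 29262 in mice with a CAST mother. The maternal share was 0.0870% ± 0.0647 (SD, n = 6), with a log2 ratio of -10.45 and an SE of 0.08 (edgeR adjusted p = 2.74e-19). Snurf, the upstream reading frame of the same transcript, had no maternal read in any mouse against 310 to 692 paternal reads, which allows a maternal share of up to 0.105% (3 reads of all its reads in the 6 mice; such limits cover counting error only). Gm38393, a coding model that overlaps Snrpn, stood at 0.0852% ± 0.0736 (SD, n = 6).

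Small RNA genes annotated inside these transcripts, on the same strand, had reads that cannot be told from those of their hosts. Snord107, a snoRNA inside Gm38393, and the snoRNA genes Gm22496, Gm25648 and Gm22373 inside Snhg14 had no maternal read in any mouse. This allows shares of up to 0.408% to 0.743%. Gm24966 reached at most 0.943% in CAST-mother replicate 2 and Gm25870 0.562% in the same mouse. These 2 genes had 136 and 82 allelic reads in their shallowest mouse, so such shares may rest on very few maternal reads. Snhg14, the long host transcript of brain snoRNAs whose far end runs antisense to Ube3a, had 2.19%, 2.61% and 2.08% maternal reads in mice with a BL6 mother and 1.87%, 2.22% and 2.71% in mice with a CAST mother. Those values do not differ between crosses beyond their spread, and all lie above those of Snrpn. Farther along the chromosome, upstream of Snrpn, the intronless genes Ndn, a growth suppressor of neurons, and Mkrn3, a ubiquitin ligase linked in humans to the timing of puberty, had 0.471% ± 0.159 and 1.01% ± 1.59 maternal reads (SD, n = 6 each), Mkrn3 at 28 reads or more per mouse. The noncoding transcripts between Snrpn and Ndn were also almost wholly paternal in young mice. Gm9801 had 0.775% ± 0.596, A330076H08Rik 1.07% ± 0.310 and B230209E15Rik 0.968% ± 0.328 maternal reads (SD, n = 6 each).

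The paternal excess was smaller over Ube3a, the ubiquitin ligase lost in human Angelman syndrome, whose maternal copy is the active one in neurons. Ube3a itself was not called: its maternal share was 44.3%, 57.7% and 40.5% in mice with a BL6 mother and 35.3%, 45.4% and 60.9% in mice with a CAST mother, with a log2 ratio of -0.14 and an SE of 0.14 (edgeR adjusted p = 1). The crosses overlap, and the mice ranged from 35.3% to 60.9% at 4781 reads or more each. The 4 called models annotated over it on the opposite strand differed from each other. Gm44559, at 59262923 to 59263934, had 8.40% ± 4.24 maternal reads, Gm44562 14.2% ± 3.60 and 9330162G02Rik, which starts before Ube3a, 23.8% ± 5.63 (SD, n = 6 each). Gm44560, further along at 59286052 to 59289166, went the other way, with 69.8%, 78.2% and 69.5% maternal reads in mice with a BL6 mother and 69.5%, 74.1% and 83.7% in mice with a CAST mother (log2 1.58, SE 0.12, edgeR adjusted p = 5.05e-07). BL6-mother replicate 2 and CAST-mother replicate 3 had the highest maternal share of their cross in Ube3a, Gm44559, Gm44562, 9330162G02Rik and Gm44560 alike. The library kit keeps strand, but the strand setting of the authors' counting is not given in the sources used here. Mir409 and Gm24321 lie at the same place on opposite strands and have identical counts, so reads there were counted whatever their strand. Reads of Ube3a and of transcripts antisense to it thus cannot be told apart. Ube3a, Gm44559, Gm44562, 9330162G02Rik and Gm44560 were described after their values were seen.

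**Figure D3:**
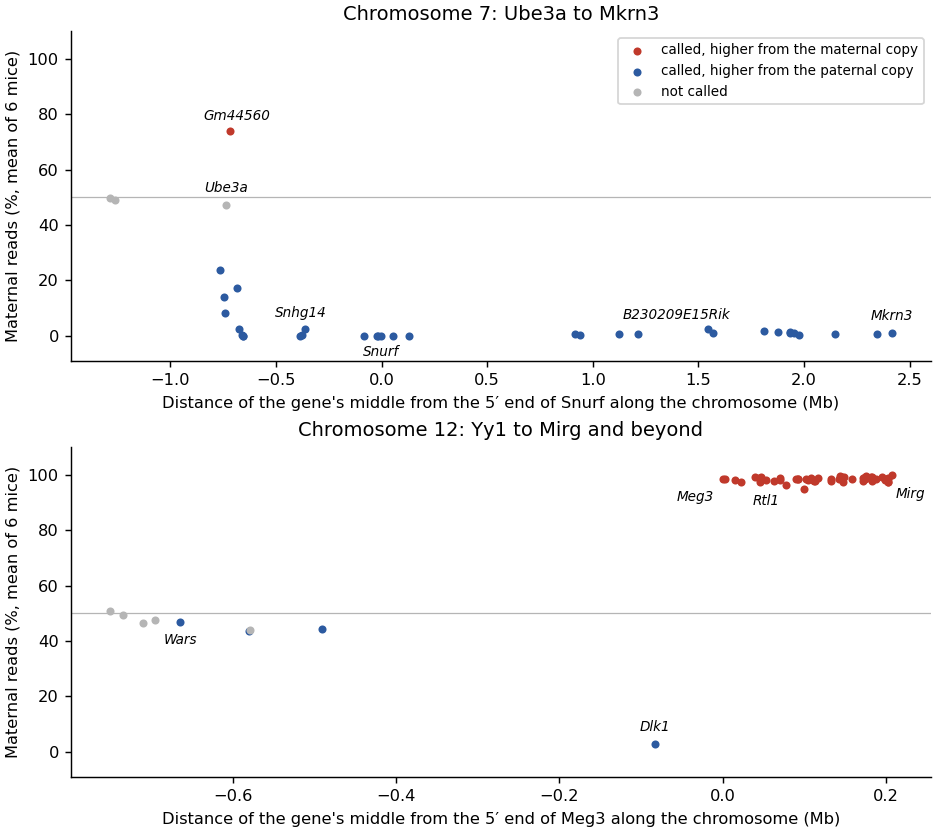
Mean share of maternal reads over 6 young mice (y axis, %) for every tested gene of 2 loci, against the distance of the gene's middle from the 5′ end of Snurf (upper panel) or Meg3 (lower panel) along the chromosome (x axis, Mb). In the upper panel paternal genes (blue) lie near 0 from Snhg14 to Mkrn3, with Ube3a at 47.4% and Gm44560 at 74.1%; in the lower panel Dlk1 (2.94%) stands before a row of maternal genes (red) near 100.

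The Peg3 locus at the other end of chromosome 7 was paternal without exception among its 6 called genes. Peg3, a zinc finger protein known for its role in maternal care, had 0.0220%, 0.0298% and 0.0637% maternal reads in mice with a BL6 mother and 0.187%, 0.145% and 0.0452% in mice with a CAST mother, at 28258 or more reads per mouse (log2 -10.50, SE 0.09, edgeR adjusted p = 1.67e-18). Usp29, a ubiquitin peptidase that shares its promoter region, had 0.222% ± 0.112 (SD, n = 6). Gm44863 and Gm44584, short models inside Usp29, had no maternal read, which allows up to 0.626% and 0.55%. Zim3, on the list of maternally expressed genes, was paternal here with 0.289% ± 0.367 maternal reads (SD, n = 6). It overlaps Usp29 on the opposite strand, so reads where they overlap cannot be told apart. Zim1, also on the maternal list, was not called, with a maternal share from 40.7% to 81.8%.

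Several further loci held 1 or 2 almost purely paternal genes, some with weaker maternal neighbours. Nap1l5, a nucleosome assembly protein gene that lies within Herc3, had 0.254% ± 0.168 maternal reads (log2 -8.71, SE 0.08, edgeR adjusted p = 3.4e-18). Its host Herc3, a ubiquitin ligase, leaned the other way in each of the 6 mice, with 52.3% to 57.7% maternal reads (log2 0.32, SE 0.02, edgeR adjusted p = 2.63e-07). On chromosome 15, Peg13, a noncoding RNA in an intron of Trappc9, had 0.421% ± 0.165 maternal reads (SD, n = 6). Around it, Kcnk9, a two-pore potassium channel, had 96.0% ± 1.76, Ago2, the small-RNA slicer, 70.2% ± 3.76, Chrac1, a histone-fold protein, 67.1% ± 3.60, and Trappc9, a trafficking protein, 61.6% ± 6.45 (SD, n = 6 each). Ptk2, next to Ago2, was not called at 50.8% ± 2.87. Farther out, Fam135b, Col22a1 and Dennd3 were called at 52.4%, 61.0% and 56.1%. The call of Col22a1 was lost without CAST-mother replicate 3 (edgeR adjusted p = 0.114). Those of Fam135b and Dennd3 were each lost without any 1 of BL6-mother replicates 1 and 2 and CAST-mother replicates 1 and 2, with an edgeR adjusted p of up to 0.155 and 0.174.

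A similar pair of opposite directions stood on chromosome 11. Zrsr1, a splicing factor gene inside an intron of Commd1, had 1.22% ± 0.508 maternal reads (SD, n = 6). Commd1, a copper homeostasis gene on the maternal list, was called as paternal at 4.40% ± 1.55, while Commd1b, a model that overlaps it on the same strand, had 62.4% ± 7.48 and the neighbour B3gnt2 61.9% ± 7.14 (SD, n = 6 each). Reads shared by Commd1, Commd1b and Zrsr1 may be counted for more than 1 of them, since the overlapping Mir409 and Gm24321 have identical counts. The opposite directions of Commd1 and Commd1b are thus uncertain. Grb10, an adaptor of the insulin receptor, was paternal, with 4.09%, 12.4% and 4.41% maternal reads in mice with a BL6 mother and 6.65%, 12.5% and 12.2% in mice with a CAST mother (log2 -3.42, SE 0.16, edgeR adjusted p = 1.34e-09). Its neighbour Cobl, an actin nucleator, was called at 53.1% ± 2.83 (SD, n = 6), a call lost without BL6-mother replicate 1 or 3 or CAST-mother replicate 2, with an edgeR adjusted p of up to 0.115.

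For a few paternal genes 1 or 2 mice stood apart. Peg10, a gene derived from a retrotransposon, had 50 maternal reads against 711 paternal reads in BL6-mother replicate 2 (6.57%), and 0 maternal reads in 4 of the other mice and 2 in the fifth. Sgce, epsilon-sarcoglycan, which shares its promoter region with Peg10, had 6.04% maternal reads in the same mouse and 0.125% to 0.791% in the others. Zdbf2, a zinc finger gene, had 5.86% and 7.03% maternal reads in BL6-mother replicates 2 and 3, and 0.135% to 0.395% in the other 4 mice. All 3 genes were called, with log2 ratios of -7.72, -6.61 and -6.47. Adam23, a membrane protein of synapses next to Zdbf2, had a small bias that all mice shared, with 43.7% to 46.5% maternal reads (log2 -0.28, SE 0.02, edgeR adjusted p = 1.39e-07). Eef1b2, on the other side, was called at 47.5% ± 5.38 (SD, n = 6). It averaged 42.6% with a BL6 mother and 52.4% with a CAST mother. Its strain effect (log2 -0.28) was larger than its parental one (log2 -0.14).

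Partial paternal bias marked another set. Rasgrf1, a Ras activator of neurons, had 15.7%, 13.2% and 11.1% maternal reads in mice with a BL6 mother and 11.2%, 7.68% and 12.9% in mice with a CAST mother (log2 -2.89, SE 0.08, edgeR adjusted p = 2.07e-12). Impact, a regulator of the stress kinase GCN2, had 11.0%, 11.6% and 15.3% in mice with a BL6 mother and 3.62%, 4.90% and 3.38% in mice with a CAST mother, so the crosses did not overlap. Mest, a hydrolase-like protein, had 28.3% ± 5.26 and Inpp5f, an inositol phosphatase, 35.4% ± 2.24 (SD, n = 6 each). Plagl1, a zinc finger factor, was nearly exclusive at 1.63% ± 1.04 (SD, n = 6). Bcl2l1, an inhibitor of apoptosis, was called with a weak bias of 44.5% ± 2.88 maternal reads. H13, the signal peptide peptidase gene near it, was maternal at 70.6% ± 1.5 (SD, n = 6; log2 1.26, SE 0.03, edgeR adjusted p = 5.09e-13), and Mcts2, the paternal gene inside H13, was not called at 45.9% ± 7.43.

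The Dlk1–Meg3 locus on chromosome 12 held 56 called genes between 108860030 and 109749460. Its 52 maternal genes run from Meg3, a long noncoding RNA, through Rtl1 and Rian, the host of a cluster of snoRNAs, to Mirg, the host of a cluster of miRNAs. Meg3 had 141617, 80279 and 164126 maternal against 51, 35 and 87 paternal reads in mice with a BL6 mother, and 129250, 88316 and 61270 against 3339, 3434 and 2686 in mice with a CAST mother. Its log2 ratio was 7.98 with an SE of 0.10 (edgeR adjusted p = 3.7e-17). Rian, Mirg, B830012L14Rik and Gm37899 had log2 ratios of 7.86, 7.31, 8.19 and 7.72. Rtl1, a retrotransposon-derived gene on the paternal list, was called as maternal at 98.2% ± 1.37 (SD, n = 6), and annotated miRNA genes of the maternal copy overlap it on the opposite strand, so that here too the strand of its reads cannot be told. Dlk1, a membrane ligand related to Notch ligands, was paternal with 2.94% ± 1.79 maternal reads (SD, n = 6; log2 -5.24, SE 0.22, edgeR adjusted p = 3.1e-10), at 74 reads or more per mouse. Begain, a synaptic protein gene, and Wars, a tRNA synthetase, some way before Dlk1, were called as paternal at 44.3% ± 4.66 and 46.8% ± 4.28. Wars averaged 50.7% with a BL6 mother and 42.9% with a CAST mother.

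In young mice the paternal copy of this locus gave a larger share of reads with a CAST mother, where it is the BL6 copy, and this was not seen at that size in old mice of the same crosses. Over the 52 maternal genes, the median maternal share was 100.0% in each of the 3 mice with a BL6 mother, and 48, 46 and 43 of the 52 genes had no paternal read. In the 3 mice with a CAST mother the median was 97.9%, 96.6% and 96.2%, and 7, 2 and 7 genes had no paternal read. In old mice the median over the 49 of these genes that were tested was 100.0% in each of the 3 mice with a BL6 mother and in both mice with a CAST mother. The paternal share of Meg3 was 0.0360%, 0.0436% and 0.0530% in young mice with a BL6 mother and 2.52%, 3.74% and 4.20% in young mice with a CAST mother. In old mice it was 0.0416%, 0.0864% and 0.0384% with a BL6 mother and 0.0880% and 0.531% with a CAST mother. The paternal shares in young mice with a CAST mother thus lay above those of all other mice, old mice with the same BL6 paternal copy included. The parental effect on Meg3 was not called by age (young minus old log2 -1.70, SE 0.43, edgeR adjusted p = 0.248). That test is of the parental effect over both crosses. Whether the difference between the crosses changed with age was not tested. In young mice, the values for the 28 miRNA genes alone were 98.3%, 96.8% and 96.4% in mice with a CAST mother, and for the 16 snoRNA genes 97.9%, 96.8% and 95.6%. Mir1188 and the snoRNA genes Gm23508 and DQ267100, those with the smallest p among the small RNA genes, had 99.0%, 97.7% and 98.8% maternal reads on average. Mir3072 had no paternal read in any mouse, which allows a paternal share of up to 0.659%. Mir1188, Gm23508 and DQ267100 lie inside Rian on its strand, so their reads cannot be told from those of Rian.

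**Figure D4:**
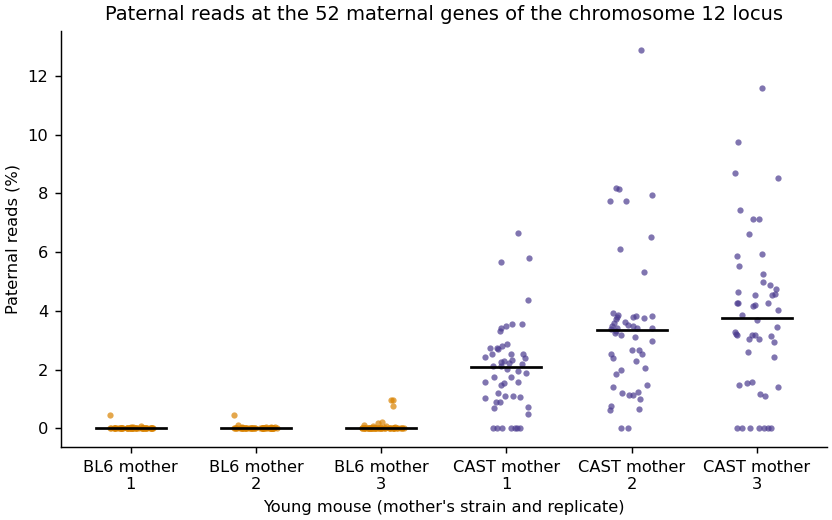
Share of paternal reads (y axis, %) at each of the 52 maternal genes of the Dlk1–Meg3 locus (points) in each young mouse (x axis), with the median as a black bar; points are spread sideways at random. Paternal reads stay under 1% in the 3 mice with a BL6 mother, whose paternal copy is CAST, and lie higher in the 3 mice with a CAST mother, whose median maternal shares were 97.9%, 96.6% and 96.2%.

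The same comparison was made for the 25 called core genes with a mean share of under 10% from the silent copy. The BL6 copy, when silent, gave a higher share than the silent CAST copy in every mouse for 8 genes, namely Meg3, Rian, Mirg, Rtl1, Impact, Commd1, Plagl1 and Ndn, and the CAST copy did so for Kcnq1ot1 and Snrpn. For the other 15 the crosses overlapped or no read was seen. Over all genes tested the maternal share lay apart between the crosses in 65.7%, so these 10 of 25 are fewer than among genes at large and no pattern is read from them. Meg3, Rian, Mirg and Rtl1 are of 1 locus, and Ndn rests on 1 maternal read in each young mouse with a CAST mother. For Impact the silent share averaged 12.6% from BL6 and 3.97% from CAST, and for Snrpn 0.0431% from BL6 and 0.131% from CAST. Reads assigned to the wrong allele would appear as reads of the silent copy, and their part in these values was not tested. Per mouse, the median silent share over the 25 genes was 0.316%, 0.971% and 0.623% with a BL6 mother and 0.976%, 0.541% and 0.697% with a CAST mother.

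On distal chromosome 7, Kcnq1ot1, a long noncoding RNA that silences its neighbours on the paternal copy, gave the smallest p of all genes. It had 39, 44 and 48 maternal against 16700, 12532 and 13479 paternal reads in mice with a BL6 mother, and 103, 67 and 73 against 20440, 17480 and 15609 in mice with a CAST mother (log2 -8.06, SE 0.05, edgeR adjusted p = 1.22e-20). Cdkn1c, the cell cycle inhibitor p57, was maternal at 93.1% ± 2.78 (SD, n = 6). Kcnq1, a potassium channel gene on the maternal list, was called as paternal at 24.5% ± 5.55. Kcnq1ot1 overlaps it on the opposite strand, so reads where they overlap cannot be told apart. The list members Cd81, Nap1l4, Osbpl5, Tspan32 and Tssc4 of this locus were not called, with means of 49.7% to 52.4%.

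Igf2, a growth factor on the paternal list, was called as maternal, with 66.8%, 64.8% and 68.1% maternal reads in mice with a BL6 mother and 68.3%, 58.8% and 74.5% in mice with a CAST mother (log2 1.01, SE 0.10, edgeR adjusted p = 1.49e-05). All 6 mice were above 50%. The lowest value belongs to CAST-mother replicate 2, highest in the choroid plexus markers at 2006 CPM. The highest belongs to CAST-mother replicate 3, lowest in them at 129 CPM. BL6-mother replicates 1, 2 and 3 and CAST-mother replicate 1 had 177, 1168, 534 and 600 CPM. The shares of these mice did not fall steadily as the markers rose. The part of choroid plexus in the result was not tested. Gm49394, a model that overlaps Igf2 on the same strand, was called as well. Igf2r, the receptor that clears IGF2, leaned to the maternal copy, with 59.7%, 60.0% and 56.1% in mice with a BL6 mother and 50.3%, 52% and 49.1% in mice with a CAST mother (log2 0.27, SE 0.04, edgeR adjusted p = 6.27e-04). Airn, the noncoding RNA antisense to it, was paternal with 6.35%, 7.35% and 4.60% maternal reads in mice with a BL6 mother and 14.9%, 23.7% and 21.3% in mice with a CAST mother. Slc22a3, a transporter in the same locus, was not called at 56.6% ± 6.19.

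Core genes that were not called had shares near equality or a wide spread. Gnas, the stimulatory G protein, had 52.6% ± 2.47 maternal reads and missed the threshold (log2 0.15, edgeR adjusted p = 0.0618). Gm20721, a model inside Gnas on the opposite strand, was called at 54.9% ± 4.12 (edgeR adjusted p = 6.88e-05). Over the 6 mice Gm20721 had 16718 maternal and 13798 paternal reads, and Gnas 16986 and 15372. Their reads cannot be told apart, so Gm20721 is not a result separate from Gnas. Asb4, an E3 ligase adaptor, had 65.4% ± 18.5 at 21 reads or more per mouse. Among other members of the maternal list, Copg2, Ppp1r9a, Casd1, Dlx5, Pon2, Pon3, Atp10a, Htr2a and Dcn had means of 47.6% to 53.3% and were not called, nor were Sfmbt2 and Tbc1d12 of the paternal list, at 48.9% and 50.4%. Blcap holds the paternally expressed Nnat on its opposite strand, so reads where they overlap cannot be told apart. Over the 6 mice Blcap had 3195 maternal and 2526 paternal reads, and Nnat 58 and 167. Blcap was called as maternal at 55.5% ± 3.40. This call was lost without any 1 of the BL6-mother replicates or CAST-mother replicate 1 or 3, with an edgeR adjusted p of up to 0.234.

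The minimum of 20 reads decided whether some known genes entered. Asb4, with 21 reads in its shallowest mouse, was just inside. Magel2, a paternal neighbour of Ndn, and Nnat, neuronatin, were just outside with 19, and had 3 maternal against 196 paternal reads and 58 against 167 over the 6 mice. In all, 154 genes had exactly 20 reads in their shallowest mouse and 173 had 19.

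Another 11 genes were called alone, in loci with no called list gene. Cdh15, M-cadherin, on chromosome 8 had the largest ratio of these, with 22.3%, 29.6% and 12.2% maternal reads in mice with a BL6 mother and 15.3%, 8.70% and 17.5% in mice with a CAST mother (log2 -2.21, SE 0.17, edgeR adjusted p = 5.08e-07), and it was called again in old mice at 27.5% ± 13.7 (SD, n = 5). Ahi1, a ciliary gene, had 42.9%, 42.9% and 43.4% in mice with a BL6 mother and 52.7%, 52.6% and 52.6% in mice with a CAST mother, a small paternal lean (log2 -0.12) beside a strain effect of -0.28, and was also called in old mice. Cyp20a1, an orphan cytochrome P450, had 74.6%, 76.0% and 73.4% in mice with a BL6 mother and 48.1%, 46.5% and 44.4% in mice with a CAST mother. Col6a4 and Ubb combine a strain effect of 1.74 and 4.61 (log2, BL6 over CAST) with a smaller parental one of -0.69 and -0.47. Neither was called in old mice, where the ratio of Ubb had the opposite sign (log2 0.24). The Ubb call was lost without BL6-mother replicate 2 (edgeR adjusted p = 0.113). The other 6 had log2 ratios from -0.31 to 1.97. Among them Gm20721, whose reads cannot be told from those of Gnas, and Nhlrc1 were called again in old mice. Gm4459 and Gm6682 had the opposite sign in old mice, with log2 ratios of -0.62 and -0.27. The calls of D130017N08Rik, Gm4459, Zfp358, Gm6682 and Nhlrc1 were each lost on leaving out any 1 of 4 or more mice, with edgeR adjusted p-values of up to 0.113, 0.277, 0.164, 0.685 and 0.213.

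The same contrast in the 5 old mice called 182 of 19578 genes (0.93%), a count that went to 297 without old BL6-mother replicate 2. Of the 152 genes called in young mice, 145 could be tested in old mice, 142 had the same sign and 131 were called, all in the same direction. The median of the mean maternal share was 97.8% in young and 99.6% in old mice over the 78 maternal genes tested in both, and 1.63% in young and 3.95% in old mice over the 67 paternal genes. A test of the parental effect by age called 10 genes (0.0511%), of which 5 were among the 152. That count depended on the tool and on single mice, with 26 genes by DESeq2, 46 without old BL6-mother replicate 2, 33 without young BL6-mother replicate 1 and 16 without young CAST-mother replicate 3.

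Of those 5, 4 are neighbouring or overlapping noncoding genes of the Snrpn–Ube3a locus, and the size of the change differed among them. B230209E15Rik, a long noncoding RNA at 61529871 to 61615327, had 0.714%, 0.959% and 1.15% maternal reads in young mice with a BL6 mother and 0.580%, 0.899% and 1.5% in young mice with a CAST mother. In old mice it had 19.2%, 23.6% and 21.9% with a BL6 mother and 19.8% and 14.5% with a CAST mother, so the ages were far apart in both crosses. The log2 ratio differed between the ages (young minus old -4.59, SE 0.15, edgeR adjusted p = 9.12e-13). Scaled as RPM of the allelic reads of each mouse, maternal reads were 0.535 ± 0.131 in young (SD, n = 6) and 11.9 ± 4.86 in old mice (SD, n = 5), while paternal reads were 56.6 ± 8.97 in young and 47.1 ± 14.0 in old mice. Its level in the authors' TPM was 33.0 ± 8.29 in young and 37.8 ± 10.7 in old mice. Ube2nl, a pseudogene within it on the same strand, had 2.48% ± 1.24 in young and 28% ± 4.86 in old mice, at 42 reads or more per young mouse. Reads of Ube2nl cannot be told from those of B230209E15Rik, so it is not a separate result. A330076H08Rik had 1.07% ± 0.310 in young and 3.95% ± 1.40 in old mice, and A230057D06Rik 1.58% ± 0.843 in young and 5.66% ± 2.62 in old mice (SD, n = 6 young and 5 old). Snhg14, Snrpn and Peg3 were not called by age, with 2.28%, 0.0870% and 0.0821% in young and 2.87%, 0.0744% and 0.0509% in old mice. Other genes that were not called by age had differences as large as those called. In the same locus A230006K03Rik had 0.490% ± 0.399 in young and 2.00% ± 1.52 in old mice (young minus old log2 -2.14, edgeR adjusted p = 0.204), and Ndn 0.471% ± 0.159 in young and 2.00% ± 1.66 in old mice (young minus old log2 -2.16, edgeR adjusted p = 0.377). Dlk1 on chromosome 12 had 2.94% ± 1.79 in young and 16.6% ± 9.46 in old mice (young minus old log2 -1.67, edgeR adjusted p = 0.503; SD, n = 6 young and 5 old). Old mice differed widely among themselves in all 3 genes.

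**Figure D5:**
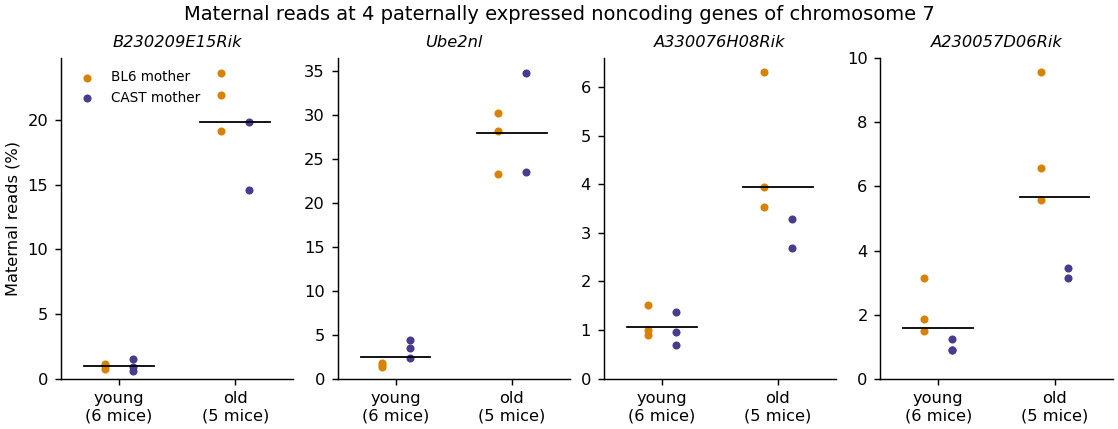
Share of maternal reads (y axis, %, own scale per panel, starting at 0) in each young and old mouse for 4 paternally expressed noncoding genes of chromosome 7; orange is a BL6 mother, purple a CAST mother, and the black bar is the mean. Each old mouse lies above all young mice for B230209E15Rik (0.580% to 1.5% in young, 14.5% to 23.6% in old mice), Ube2nl, A330076H08Rik and A230057D06Rik. Ube2nl lies within B230209E15Rik on the same strand.

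Among the other 6 genes called by age, Cyp20a1 had a larger maternal lean in young mice, with a log2 ratio 0.65 higher than in old mice, where it was not called (old log2 0.03, edgeR adjusted p = 0.954). Its values moved in 1 cross: with a BL6 mother it had 73.4% to 76.0% in young and 55.1% to 59.5% in old mice, and with a CAST mother 44.4% to 48.1% in young and 43.6% and 45.5% in old mice. Ncapd2, a condensin subunit, Scarna10 and Gm28967, which lie in it and have identical shares, Ostc and Gm6793 were not called in young mice, and their young minus old differences were -0.34, -0.38, -0.38, 0.31 and -1.56. Ncapd2, Scarna10 and Gm28967 were called as higher from the maternal copy in old mice, with log2 ratios of 0.25, 0.28 and 0.28. Ncapd2 had 65.8% to 68.1% in young and 65.0% to 66.6% in old mice with a BL6 mother, and 28.1% to 33.5% in young and 42.1% and 42.7% in old mice with a CAST mother, and Scarna10 and Gm28967 followed it. Gm6793 had 93.1% to 95.0% in young and 95.7% to 98.2% in old mice with a BL6 mother, and 1.86% to 2.36% in young and 11.2% and 8.17% in old mice with a CAST mother. Whether the change by age differs between the crosses was not tested. The call of Ostc by age was lost without old CAST-mother replicate 1 or young BL6-mother replicate 2, and that of Gm6793 without old CAST-mother replicate 1, at edgeR adjusted p-values of up to 0.0961 and 0.139.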

How the data were processed

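RNA-seq of polyadenylated RNA from mouse hippocampus was measured in 11 mice, 6 of them young, with 1 library per mouse. Per the submitters' processing notes the tools were bcl2fastq 2.20, Trim Galore 0.6.6, HISAT2 2.1.0, SAMtools 1.10 and featureCounts of Subread 2.0.0, with the genome build GRCm38. The deposited tables hold, per the file headers, raw counts per gene in total and for each allele, and the authors' TPM values, which scale counts by gene length and library. Not given in the sources used here are how reads were given to an allele, which gene annotation was counted, and with which strandedness. The allele named i4fb was taken as BL6. Read totals are given in the opening of the results, and the smallest chi-square per gene between replicates, 129, is far above the 1 that sampling noise alone would give.

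The allele counts were fitted with edgeR 4.0.16 (R 4.3.3, limma 3.58.1) by the quasi-likelihood test, with terms for mouse, parent and strain of the allele and the mouse's allelic total as the library size of both its columns. Tested were autosomal genes whose 2 alleles summed to 20 reads or more in each young mouse. P-values were adjusted over all of them by the Benjamini-Hochberg method, and genes under 0.05 were called. Log2 ratios are maternal over paternal, and SE is derived from the F statistic. The 2 alleles of 1 mouse are paired by the mouse term. Old mice were fitted alone, and the effect by age with all 11 mice. P-values set the effect against the spread between these mice, which the method draws for each gene in part from other genes (prior degrees of freedom 10.1 in the young fit). On simulated counts for the young comparison (20237 genes in the fit), 83.6% of 67 genes changed by a log2 of 0.5, 97.0% of 67 changed by 1 and 100.0% of 66 changed by 3 were recovered, with 7 false calls among 20037 unchanged genes. Whether these values hold for genes with a strain effect or a wide spread between mice was not tested. A strain effect was called for 60.7% of the tested genes. Alternatives were other count minimums, library scalings, terms, DESeq2 1.42.0 and leaving out each mouse. Gene positions and types come from GENCODE M21, which matched 55141 of 55401 genes.

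The members, gene lists and the rule for named genes were chosen with earlier results of these data known. Named were, for each parent, the 12 called genes with the smallest adjusted p, the 10 genes on no list with the largest ratio, genes against their list, list members of the loci described, core genes not called and the 10 genes with the smallest p by age. Other genes outside the lists were chosen after their values were seen.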

Additional observations from a re-analysis of the deposited data

Results flagged for a closer look

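In 77 named genes the young mouse farthest from the others was examined, and 4 genes had a mouse standing apart by a Dixon test. Chance alone gives about 1 in 20 groups, and 4 of 77 is near that share. The maternal share of Peg10 was 6.57% and that of Sgce 6.04% in BL6-mother replicate 2. The maternal share of Gm38393 was 0.226% in CAST-mother replicate 1 and that of Gm25870 was 0.562% in CAST-mother replicate 2. Gm25870 had as few as 82 allelic reads in a mouse, so its value may rest on very few maternal reads. Peg10 and Sgce are neighbours, and both stood apart in the same mouse.

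The parental effect differed between young and old mice for 10 genes, by the test of the difference itself. Young minus old differences on the log2 scale were -4.59 for B230209E15Rik, -3.94 for Ube2nl within it, -1.90 for A330076H08Rik and -1.77 for A230057D06Rik, all in the Snrpn–Ube3a locus. They were 0.65 for Cyp20a1, -0.34 for Ncapd2, -0.38 for Scarna10, -0.38 for Gm28967, 0.31 for Ostc and -1.56 for Gm6793. The values of Cyp20a1 differed by age in mice with a BL6 mother, and those of Ncapd2, Scarna10 and Gm28967 mainly in mice with a CAST mother; the difference between the crosses was not tested.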

How the results depend on the processing

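Scaling each column by its own total or by TMM left the count of called genes at 152, DESeq2 gave 142 (141 shared, with Ubb, Dennd3, D130017N08Rik, Gm4459, Zfp358, Gm6682 and Nhlrc1 among those lost) and all 11 mice in 1 fit gave 157. With no filter on low counts 317 genes were called, 153 of them maternal and 164 paternal. Without the strain term 94 were called, 45 of them maternal. With no replicate block, so without pairing the alleles of 1 mouse, 118 were called. A mean of at least 10 reads gave 199 calls and a minimum of 50 reads gave 119. Leaving out each young mouse gave 145 to 157 calls (maternal 76 to 81, paternal 69 to 76), and 137 of the 152 genes were called without each mouse in turn. Leaving out the 2 libraries highest in the striatal marker Drd2, chosen after seeing the data, gave 141 calls, 136 of them among the 152.

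In old mice, leaving out each mouse gave 139 to 297 calls against 182, with 73 to 165 maternal and 66 to 132 paternal. The highest counts came without old BL6-mother replicate 2 and the lowest without old CAST-mother replicate 1. For the effect by age, DESeq2 called 26 genes against 10, 13 higher in young and 13 higher in old mice. Leaving out each mouse gave 10 to 46 calls, with 2 to 20 higher in young and 8 to 26 higher in old mice; the 46 came without old BL6-mother replicate 2, and 33 and 16 without young BL6-mother replicate 1 and young CAST-mother replicate 3. The cause was not tested. Of 85 named genes under 16 alternatives, none changed direction past the threshold, and 44 of the 75 called among them were called under every alternative that tested them. At 20 reads per mouse, the depth limits which biases could be called.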

Other observations

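The lists hold 16 genes with fewer than 20 allelic reads in some young mouse, which entered no test. Summed over the 6 young mice, H19, a maternally expressed noncoding RNA, had 120 maternal and 12 paternal reads. Klf14, a transcription factor gene, had 59 and 1, and Calcr, the calcitonin receptor, 32 and 2. Peg12 had 2 maternal and 74 paternal reads. Dio3, a deiodinase that inactivates thyroid hormone at the far end of the Dlk1–Meg3 locus, had 16 maternal and 8 paternal reads.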
